A study of Bos taurus with 24 samples.

Results

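The colony-stimulating factors CSF1, CSF2 and CSF3 are secreted proteins that instruct cells of the myeloid lineage. The genes were taken by symbol from the deposited expression tables, where each stood on 1 row, so that 3 of the 27550 rows with a gene symbol are described here. On the bovine build UMD v3.1, CSF1 occupied chromosome 3 from 33607139 to 33621030 on the minus strand, a gene span of 13892 bases. CSF2 occupied chromosome 7 from 23694183 to 23696548 on the minus strand, a span of 2366 bases. CSF3 occupied chromosome 19 from 40981690 to 40984001 on the plus strand, a span of 2312 bases. A row covered the whole gene, introns included, and none of the 3 rows overlapped another row.

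CSF1, or macrophage colony-stimulating factor, acts through the receptor tyrosine kinase CSF1R and maintains monocytes and macrophages. CSF2, or granulocyte-macrophage colony-stimulating factor, acts through CSF2RA and the shared subunit CSF2RB and primes neutrophils, macrophages and dendritic cells. CSF3, or granulocyte colony-stimulating factor, acts through CSF3R and drives the production and release of neutrophils. Fibroblasts are a known stromal source of all of them, and bacterial products, IL-1 and TNF are known to raise their production.

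The study asked whether dermal fibroblasts of dairy and beef cattle respond differently to lipopolysaccharide (LPS), the endotoxin of Gram-negative bacteria. Cultures came from shoulder skin of 4 Holstein and 4 Angus heifers of the same age, and were used at a low passage after cryopreservation. RNA was sequenced from untreated cells (0 h) and from cells exposed to LPS at 100 ng/ml for 2 h and 8 h, which gave 24 libraries in 6 groups of 4. Each library stood for 1 animal at 1 time, from 2 pooled wells of a single culture, so differences between animals include differences between cultures. Every treated group is compared with the same 0 h libraries of its animals, and comparisons at 2 h and 8 h therefore share their controls. No unexposed culture was sampled at 2 h or 8 h, so LPS and time in fresh medium cannot be told apart.

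Summed read counts per library ran from 51014538 to 104406293, so that 3 counts corresponded to between 0.0287 and 0.0588 CPM, the unit of counts scaled to a common library size. All 9 fibroblast markers were measured above the filter. Of 10 macrophage and monocyte markers, 1 passed it (CD68), C1QA and C1QB were at 0 in every library, and the summed level of the list lay between 2.25 and 6.10 CPM. T cell markers summed to at most 0.248 CPM and endothelial markers to at most 5.21 CPM in any library. Keratinocyte markers summed to at most 0.291 CPM in Angus libraries but reached 13.2 CPM in those of Holstein animal 1. In 4 libraries the collagen gene COL1A1 had been counted differently from the others, each count there standing for 66.2 to 67.1 covered bases and in the others for 112 to 119. They were those of Angus 4, Holstein 2 and Holstein 4 at 0 h and of Angus 3 at 2 h. Values of CSF1 and CSF3 that reversed or crossed the threshold without them, and calls of other genes lost without them, are given both ways.

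**Figure D1:**
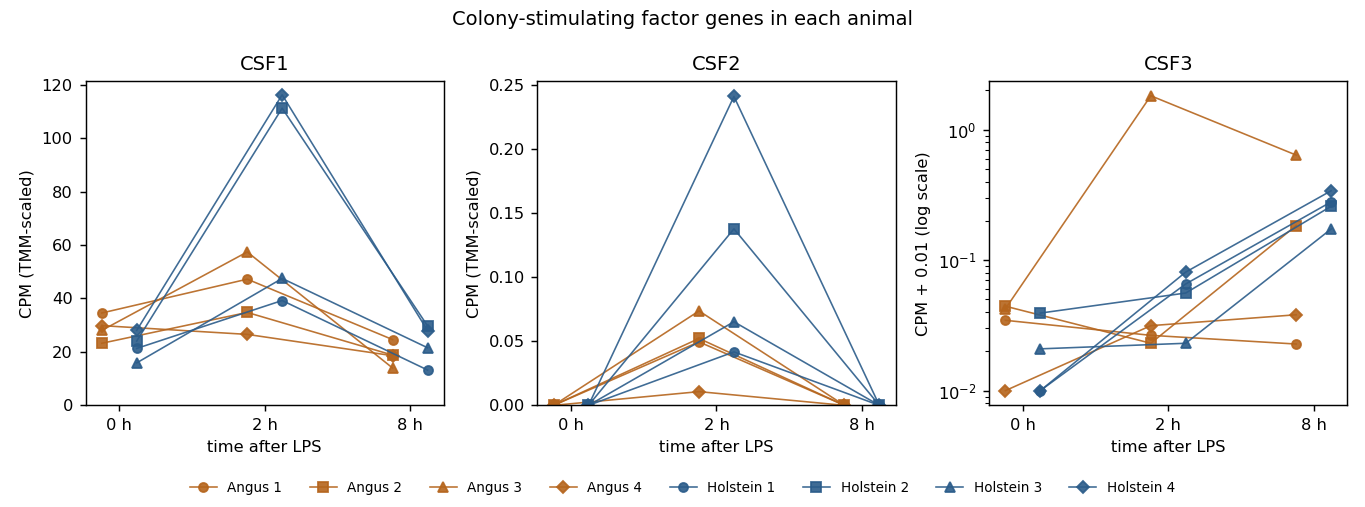
Level of CSF1, CSF2 and CSF3 in each of the 24 libraries, in CPM after TMM scaling, against time after LPS. Each line joins the libraries of 1 animal, brown for Angus and blue for Holstein. CSF1 peaked at 2 h with 111 and 116 CPM in Holstein 2 and 4, CSF2 was above 0 only at 2 h, and CSF3 (log axis, 0.01 CPM added) rose by 8 h in the Holstein animals and stood at 1.81 CPM in Angus 3 at 2 h.

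CSF1 was the only one of the 3 genes with at least 1 CPM in all 24 libraries, and its mRNA rose at 2 h and returned by 8 h. In untreated Holstein cells CSF1 measured 21.3, 24.1, 15.9 and 28.0 CPM in animals 1 to 4 (mean 22.3 ± 5.10, SD, n = 4). After 2 h of LPS the same animals measured 39.2, 111, 47.5 and 116 CPM (mean 78.5 ± 40.8). After 8 h they measured 13.2, 29.7, 21.6 and 28.0 CPM (mean 23.1 ± 7.47). All 4 Holstein libraries at 2 h lay above all Holstein libraries at 0 h, as in 6.66% of rows with a count. The 2 h values fell into a pair above 110 CPM and a pair below 50 CPM.

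In untreated Angus cells CSF1 measured 34.6, 23.2, 28.0 and 29.8 CPM in animals 1 to 4 (mean 28.9 ± 4.68, SD, n = 4). After 2 h the values were 47.2, 34.8, 57.4 and 26.6 CPM (mean 41.5 ± 13.6). After 8 h they were 24.6, 18.8, 14.0 and 18.6 CPM (mean 19.0 ± 4.36). The ranges at 0 h and 2 h overlapped, since Angus 4 was lower at 2 h than at 0 h, whereas at 8 h each of the 4 animals was below its own untreated level, as were 21.0% of the rows tested.

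Taking both breeds together, CSF1 rose at 2 h by a log2 fold change of 1.23 ± 0.28 (SE, edgeR likelihood ratio test, FDR = 0.000200). A gene was counted as changed at a false discovery rate (FDR) under 0.05, a fold change of at least 2 and an average CPM above 1, and 2.82% of the 20157 rows tested were changed at 2 h. Of all rows tested, 2.08% were higher. CSF1 was higher at 2 h in 7 of 8 animals, with a mean change of 1.07 ± 0.82 on the log2(CPM + 0.1) scale (SD, two-sided exact permutation test, p = 0.0156). The fold change per animal ran from 0.890 in Angus 4 to 4.62 in Holstein 2. Leaving out the 4 animals with a differently counted library gave a mean of 0.87 in the remaining 4, with an exact p of 0.125, the smallest that 4 animals allow.

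CSF1 then fell between 2 h and 8 h by 1.51 ± 0.29 on the log2 scale (edgeR likelihood ratio test, FDR = 8.28e-06), where 2.76% of rows were changed and 1.61% were lower. Of the 561 changed rows 234 were higher and 327 lower, and without scaling beyond the total count 350 of 594 were higher and 244 lower, with CSF1 still lower. The decrease was seen in 8 of 8 animals (two-sided exact permutation test, p = 0.00781, the smallest this design allows), against 17.2% of rows that were lower in all 8. At 8 h the level was not distinguishable from that at 0 h over both breeds (log2 fold change -0.29 ± 0.18, FDR = 0.348, 1.42% of rows changed).

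Within Holstein fibroblasts CSF1 rose at 2 h by 1.81 ± 0.36 on the log2 scale (edgeR, FDR = 2.20e-05), where 3.17% of rows were changed. CD68, the only macrophage and monocyte marker that could be tested, rose there as well, from 1.71 ± 0.367 to 3.62 ± 0.650 CPM (1.07 ± 0.22 on the log2 scale, FDR = 3.56e-05), and by 0.85, under 2-fold, without the differently counted libraries. The whole list of 10 such markers summed to 2.25 to 3.71 CPM in Holstein libraries at 0 h and 4.87 to 5.95 CPM at 2 h. Apart from CD68, CSF1R averaged 0.307 CPM at 0 h and 0.556 CPM at 2 h in these libraries. PTPRC averaged 0.487 and 0.510 CPM, CD14 0.342 and 0.327 CPM, CD163 0.180 and 0.176 CPM, and AIF1 0.0945 and 0.0953 CPM. The part of such cells in the CSF1 rise was not tested. CSF1 fell by 1.77 ± 0.39 from 2 h to 8 h (FDR = 0.000148, 3.92% of rows changed), and stood at a log2 fold change of 0.05 ± 0.27 against 0 h (FDR = 0.941, 2.52% of rows changed). Within Angus fibroblasts the 2 h change was 0.52 ± 0.24 and did not pass the test (FDR = 0.162, 2.99% of rows changed). With the animal as a block its FDR was 0.0205, but the fold stayed under 2. At 8 h the Angus level was lower than at 0 h by a log2 fold change of -0.61 ± 0.19, with an FDR of 0.0423 but a fold under 2, where 0.863% of rows were changed. From 2 h to 8 h CSF1 fell by 1.13 ± 0.26 in Angus cells (FDR = 0.000590, 2.37% of rows changed). This Angus decrease was under 2-fold, at -0.81, without Angus animal 3 and at -0.92 without scaling beyond the total count.

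The breeds did not differ in CSF1 by the test at any hour when all libraries were used. Holstein cells were lower at 0 h (log2 fold change -0.37 ± 0.19, edgeR FDR = 0.194, 3.83% of rows changed). Without the 3 differently counted libraries at 0 h the difference was -0.62 (FDR = 0.182), and 259 rows were changed instead of 781. They were higher at 2 h (0.92 ± 0.39, FDR = 0.0798, 4.46% of rows changed), and little separated from Angus cells at 8 h (0.29 ± 0.27, FDR = 0.497, 3.25% of rows changed). The 2 h value passed the threshold when any of 3 libraries was left out. It was 1.12 (FDR = 0.0319) without Angus 3, 1.14 (FDR = 0.0160) without Holstein 1 and 1.10 (FDR = 0.0417) without Holstein 3. The ranges of the breeds overlapped at 2 h, because Holstein 1 and 3, at 39.2 and 47.5 CPM, were below Angus 3 at 57.4 CPM.

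The breed by LPS interaction asks whether the change itself differed. CSF1 changed at 2 h by 0.45, 0.58, 1.03 and -0.17 on the log2(CPM + 0.1) scale in Angus animals 1 to 4. It changed by 0.88, 2.20, 1.57 and 2.05 in Holstein animals 1 to 4. The sets overlapped only where Angus 3 exceeded Holstein 1, and the means of 0.47 and 1.68 differed by 1.20 (two-sided exact permutation test, p = 0.0571). The edgeR interaction without the animal as a block was 1.30 ± 0.47 with an FDR of 0.424, where 0.278% of rows were changed. With the animal as a block it was 1.22 with an FDR of 0.00394 in the likelihood ratio test, past the threshold, and 0.0684 in the quasi-likelihood F test. It passed in 2 of 24 alternative fits, and the share of 0.278% belongs to the fit without the block. At 8 h the interaction was 0.66 ± 0.34 (FDR = 1.00, 0.0982% of rows changed). Summed over the 4 keratinocyte markers, the Holstein libraries at 2 h held 10.8, 0.690, 0.888 and 0.142 CPM in animals 1 to 4. The animals with the smaller CSF1 rise, 1 and 3, were thus the higher ones by the sum, but the sums of animals 3 and 2 lay close. KRT14 alone was higher in animal 2 (0.245 CPM) than in animal 3 (0.183 CPM). Animals 2 and 4, with the larger rise, were also the Holstein animals with a differently counted library at 0 h. The part of keratinocytes or of that counting in the CSF1 values was not tested. In bulk RNA fewer cells of a type and less RNA per cell cannot be told apart.

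**Figure D2:**
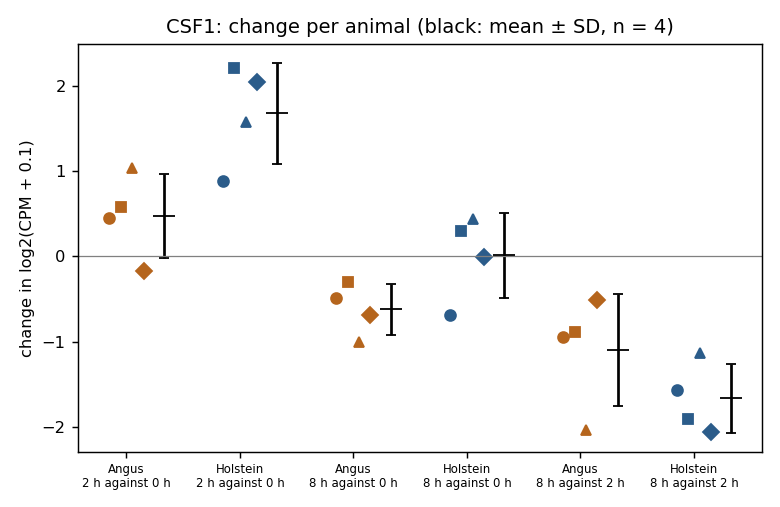
Change of CSF1 in each animal between hours, in log2(CPM + 0.1), with the mean and SD of 4 animals in black (circle, square, triangle and diamond are animals 1 to 4). At 2 h the Holstein changes ran from 0.88 to 2.20 and the Angus changes from -0.17 to 1.03, and from 2 h to 8 h all 8 animals fell.

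Reads were also counted on the row beside CSF1. The interval without a symbol that adjoins CSF1 on its lower-coordinate side, chromosome 3 from 33556282 to 33607138, lies downstream of the gene, which is on the minus strand. Its counts were 0.916 to 1.06 times those of the CSF1 row in each of the 24 libraries. Since a read could be counted on more than one row, it cannot be told from the tables whether these are further reads or the same reads counted again. The interval rose with CSF1, from 22.1 ± 4.99 to 80.1 ± 42.1 CPM at 2 h in Holstein cells and stood at 28.2 ± 4.04 and 41.0 ± 12.7 CPM in Angus cells (SD, n = 4 each). Over both breeds its 2 h change was 1.26 ± 0.28 on the log2 scale (edgeR, FDR = 0.000131). The interval on the upstream side, from 33621031 to 33702815, averaged between 0.799 and 1.49 CPM in the 6 groups and did not change at 2 h by the test (0.42 ± 0.28, FDR = 0.339). AHCYL1, the next gene downstream, lay between 113 and 135 CPM on average in the 6 groups.

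**Figure D3:**
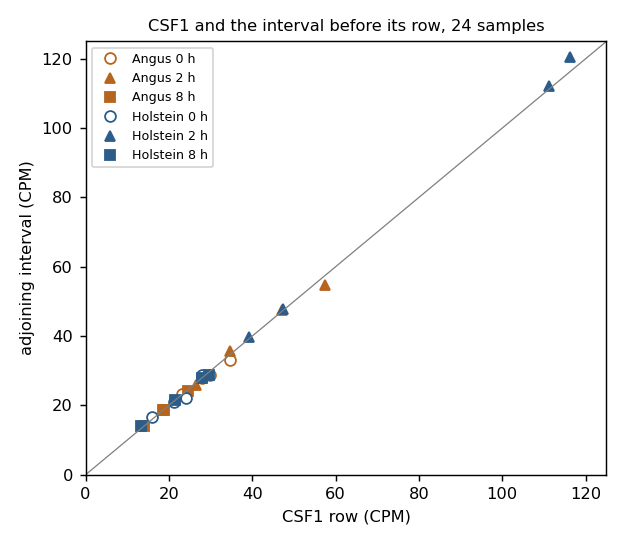
CPM of the adjoining downstream interval against CPM of the CSF1 row in each of the 24 libraries, by breed (colour) and hour (shape), with the line of equality. All points lie near the line, with a ratio between 0.916 and 1.06, including the Holstein libraries at 2 h above 110 CPM.

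CSF2 transcripts were counted only at 2 h. The row was at 0 counts in all 8 libraries at 0 h and in all 8 at 8 h. In Holstein 2 at 0 h, a differently counted library, the row had a mean coverage of 0.01 despite 0 counts. At 2 h the Angus libraries held 3, 4, 6 and 1 counts in animals 1 to 4 (0.0466 ± 0.0262 CPM, SD, n = 4), and the Holstein libraries held 3, 9, 5 and 17 counts (0.122 ± 0.0897 CPM). Every library at 2 h was thus above every library at 0 h and 8 h (two-sided exact permutation test over 8 animals, p = 0.00781, the smallest this design allows). Of the 1469 rows that were at 0 in all untreated libraries and above 0 in any at 2 h, 0.0681% were above 0 in all 8 at 2 h. That share was 1 row, CSF2 itself. The rows compared were picked by the pattern of CSF2 at 0 h, so the share is a description and no test. Rows with any count at 0 h were left out of it.

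Against the limit that 0 counts allow, 3 counts over the group, the 48 summed counts at 2 h stood at least 17.1-fold higher than at 0 h and at least 17.8-fold higher than at 8 h. By breed, CSF2 was at least 10.9-fold higher at 2 h than at 0 h in Holstein cells and at least 5.47-fold higher in Angus cells. These bounds take the 2 h counts as they stand. The 17 counts of Holstein 4 stood for 64.0 covered bases each, against 80.4 to 103 in the other 2 h libraries. With the counting error of both hours, the 95% lower limits were 13.4-fold against 0 h and 13.9-fold against 8 h. Against 0 h they were 8.36-fold in Holstein and 3.89-fold in Angus cells. These limits leave out the spread between animals. CSF2 did not reach 1 CPM in any library and was removed by the filter in all comparisons. Without the filter its 2 h change had an FDR of 6.19e-08 in the edgeR likelihood ratio test and 0.00172 in the F test, and the average CPM of 0.0646 stayed under the limit of 1.

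The order of the Holstein animals for CSF2 at 2 h, 4 then 2, 3 and 1, was also their order for CSF1. In Angus cells animal 3 was highest and animal 4 lowest for both genes. Holstein and Angus levels of CSF2 overlapped at 2 h, and the difference of 1.37 ± 0.73 on the log2 scale did not pass the test without the filter (edgeR, FDR = 0.268). On the log2(CPM + 0.1) scale it was 0.53 (two-sided exact permutation test, p = 0.200). IL3, the neighbouring growth factor gene that starts 12919 bases beyond the end of CSF2 on chromosome 7, was at 0 counts in all 24 libraries. The intervals on either side of CSF2 averaged at most 0.353 CPM, and that toward IL3 at most 0.0105 CPM.

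CSF3 was nearly silent in untreated cells and, unlike CSF1 and CSF2, was higher at 8 h than at 2 h in Holstein fibroblasts. Holstein animals 1 to 4 held 0, 2, 1 and 0 counts at 0 h. They held 4, 3, 1 and 5 counts at 2 h (0.0464 ± 0.0245 CPM, SD, n = 4). At 8 h they held 27, 20, 10 and 33 counts (0.253 ± 0.0690 CPM). All 4 Holstein libraries at 8 h were above all those at 2 h and 0 h, a separation from 0 h that 6.11% of 50008 rows with a count showed.

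The summed Holstein counts at 8 h were 23.9 times those at 0 h, with a 95% counting interval from 7.92 to 118, and 5.75 times those at 2 h, from 3.20 to 11.2. At 2 h they were 4.15 times those at 0 h, from 1.14 to 22.7, and these intervals leave out the spread between animals. In the edgeR fit without the filter this 2 h change was 1.91 ± 1.03 (FDR = 0.223), so when the rise began cannot be told. Per animal, the rise from 2 h to 8 h was 1.26 ± 0.05 on the log2(CPM + 0.1) scale (SD, 4 of 4 animals, two-sided exact permutation test, p = 0.125, the smallest 4 animals allow), and 28.0% of the rows tested were higher in all 4. CSF3 did not pass the filter on low values. Without it, the Holstein change at 8 h was 4.35 ± 0.91 on the log2 scale (edgeR likelihood ratio test, FDR = 1.22e-09, and 0.00288 in the F test, or 5.05 without the differently counted libraries), and that from 2 h to 8 h was 2.44 ± 0.53 (FDR = 1.84e-05).

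Angus cultures varied more. They held 2, 3, 3 and 0 counts of CSF3 in animals 1 to 4 at 0 h. At 2 h they held 1, 1, 147 and 2 counts. At 8 h they held 1, 13, 60 and 2 counts. Angus 3 alone carried 1.81 CPM at 2 h and 0.628 CPM at 8 h, whereas animals 1 and 4 stayed at 2 counts or fewer at both times and animal 2 rose only at 8 h.

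Without the filter the Angus change at 8 h was 3.15 ± 1.15 on the log2 scale and did not pass the test (edgeR, FDR = 0.212). It was 1.82 (FDR = 0.770) without animal 3, and 2.68 with the animal as a block (FDR = 0.00824). Over both breeds CSF3 was higher at 8 h than at 0 h in 7 of 8 animals (mean change 1.30 ± 0.88 on the log2(CPM + 0.1) scale, SD, two-sided exact permutation test, p = 0.0156). The corresponding change without the filter was 3.65 ± 0.74 (FDR = 3.87e-05), and 3.46 (FDR = 0.000413) without Angus animal 3.

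The 2 h value over both breeds rested on 1 library. Summed CSF3 counts were 164 at 2 h against 11 at 0 h, a ratio with a 95% counting interval from 8.69 to 32.6. Without Angus 3 they were 17 against 8, a ratio of 2.25 with an interval from 0.921 to 6.03. In the edgeR fit without the filter the 2 h change was 3.81 ± 1.08 (FDR = 0.0104) with all animals and 1.10 (FDR = 0.423) without Angus 3. Without the differently counted libraries it was 0.61 (FDR = 0.704). With the animal as a block it was 1.95 and did not pass (FDR = 0.0719). Breed differences in CSF3 did not pass the test at 2 h (-3.29 ± 1.33, FDR = 0.144) or at 8 h (0.24 ± 0.87, FDR = 0.923), and without Angus 3 they were 1.31 (FDR = 0.354) and 1.80 (FDR = 0.0841).

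Of the 11 listed genes that rose at 2 h over both breeds, Angus 3 was the highest Angus library at 2 h for 9. The exceptions were NFATC2 and IL11, both highest in Angus 1, and IL11 was lowest in Angus 3 at 1.33 CPM. IL6, a cytokine of the acute phase, measured 204 CPM there against 7.44 to 42.9 CPM in the other Angus animals. TNF, an early inflammatory cytokine, measured 1.44 CPM against 0.0537 to 0.196 CPM, and NOS2, the inducible nitric oxide synthase, measured 1.72 CPM against 0.0107 to 0.301 CPM. Over 20532 rows, Angus 3 was the highest of the 4 Angus libraries at 2 h in 31.4%. At 8 h, in a library counted like the others, Angus 3 was again the highest Angus animal for 9 of the 11 genes, and in 29.2% of 20496 rows. Among the 9 was IL6, at 128 CPM against 3.83 to 36.0 CPM. CSF1, in contrast, was lowest in Angus 3 at 8 h, at 14.0 CPM. The other COL1A1 counting of the 2 h library moves with the 2 h values of Angus 3, and its part in them was not tested. Of the genes beside CSF3, PSMD3 measured 102 CPM in this library against 120 to 139 CPM in the other Angus animals, and MED24 measured 32.4 CPM against 32.4 to 37.7 CPM.

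Ranked by mean level, CSF1 was highest in Holstein cells at 2 h, followed by Angus at 2 h, Angus at 0 h, Holstein at 8 h, Holstein at 0 h and Angus at 8 h. No neighbours in this order differed by more than the larger of their SDs, and their ranges overlapped. For CSF2 both 2 h groups were above the remaining groups, all at 0, and Holstein and Angus at 2 h did not differ beyond their spread. For CSF3 the order was Angus at 2 h, Holstein at 8 h, Angus at 8 h, Holstein at 2 h, Angus at 0 h and Holstein at 0 h, and no neighbours differed beyond their spread.

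Transcripts for the receptors of these factors were scarce. Of 7 genes listed as receptors or further ligands, 6 were in the tables and IL34 alone passed the filter when both breeds were compared over time. CSF1R, the CSF1 receptor, averaged between 0.307 and 0.556 CPM in the 6 groups. CSF2RA averaged between 0.416 and 0.940 CPM, while the shared subunit CSF2RB was above 0 in 9 of 24 libraries and CSF3R in 15 of 24.

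IL34, the other known ligand of CSF1R, was measured well and was higher in Holstein cells. It averaged 11.9 ± 2.74, 10.4 ± 1.34 and 15.0 ± 3.26 CPM in Holstein cells at 0 h, 2 h and 8 h, and 5.92 ± 1.23, 4.74 ± 0.801 and 7.32 ± 2.17 CPM in Angus cells (SD, n = 4 each). Holstein cells were higher at 0 h by a log2 fold change of 1.01 ± 0.22 (edgeR, FDR = 0.000220), a difference that did not pass without the differently counted libraries (0.99, FDR = 0.0973). They were higher at 2 h by 1.13 ± 0.18 (FDR = 6.00e-08) and at 8 h by 1.03 ± 0.24 (FDR = 0.000870). At 2 h all Holstein libraries were above all Angus libraries, as in 12.9% of rows. Over the hours the IL34 means were lower at 2 h than at 0 h and higher at 8 h than at 2 h in both breeds. These changes did not pass in the fit without the animal (-0.24 ± 0.29 at 2 h, FDR = 0.679, and 0.56 ± 0.30 from 2 h to 8 h, FDR = 0.179). With the animal as a block they were -0.25 (FDR = 0.00233) and 0.56 (FDR = 3.52e-10), both under 2-fold.

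Of 12 other growth factors of blood cells, 7 could be tested at 2 h over both breeds, and 3 rose and 0 fell, where 2.08% of all rows rose and 2.82% changed. They were IL6 (6.46 ± 0.58 on the log2 scale, FDR = 1.42e-16), LIF (4.64 ± 0.56, FDR = 5.05e-11) and IL11 (2.58 ± 0.28, FDR = 5.24e-17), all ligands of receptors that share gp130. The median log2 change of the 7 was 0.00, as was that of all rows tested. At 8 h 1 of 6 tested was changed (1.42% of all rows), IL6 at 6.96 ± 0.48 (FDR = 1.28e-26). LIF and IL11 fell again from 2 h to 8 h, by 3.32 ± 0.64 (FDR = 2.90e-05) and 1.28 ± 0.30 (FDR = 0.000231). At 2 h LIF was higher in Holstein than in Angus cells by 2.02 ± 0.58 (FDR = 0.00825) and IL11 by 1.02 ± 0.31 (FDR = 0.00991). LIF did not pass in the F test (FDR = 0.0523), and IL11 was under 2-fold, at 0.98, without the Angus 3 library. KITLG, the ligand of the stem cell factor receptor, did not pass the test at 2 h (-0.80 ± 0.56, FDR = 0.372).

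Transcription factors known to act on the promoters of these genes moved in number at 2 h. Of 22 listed, 18 were tested over both breeds, 8 rose and 1 fell, against 2.08% of all rows that rose, and their median log2 change was 0.91 against 0.00 for all rows. NFATC1, a calcium-regulated factor, rose by 3.30 ± 0.22 (FDR = 1.58e-39), from 18.5 ± 4.00 to 184 ± 45.8 CPM in Holstein cells and from 11.8 ± 2.31 to 114 ± 29.5 CPM in Angus cells. RELB, a subunit of NF-kappaB, rose by 2.27 ± 0.26 (FDR = 2.08e-15), and FOSL1, a subunit of AP-1, by 2.12 ± 0.38 (FDR = 1.48e-06). NFATC2, JUNB, NFKB1, ETS1 and CEBPD also rose, CEBPD by 0.81, under 2-fold, without the differently counted libraries, and FOS fell by 1.13 ± 0.21 (FDR = 2.89e-06).

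At 8 h 4 of the 19 tested factors were higher than at 0 h (RELB, NFKB2, NFKB1 and CEBPD), 1 was lower (FOS, at -0.97 and under 2-fold without the differently counted libraries), where 1.42% of all rows were changed, and the median was 0.18. From 2 h to 8 h 5 of 18 fell, against 1.61% of all rows, among them NFATC1 by 2.94 ± 0.21 (FDR = 1.57e-35), and 0 rose. Between breeds at 2 h, JUNB was higher in Holstein cells (1.34 ± 0.25, FDR = 8.37e-06) and NFATC2 lower (-1.23 ± 0.31, FDR = 0.00145). FOSL1 was lower in Holstein cells before LPS (-1.92 ± 0.38, FDR = 9.18e-05), and it was the only tested gene of these lists with an interaction past the threshold at 2 h (1.81 ± 0.44, edgeR, FDR = 0.0141). The interaction did not pass in the F test (FDR = 0.189) or without the differently counted libraries (1.39, FDR = 0.185), nor did the 0 h difference without them (-1.44, FDR = 0.0548).

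**Figure D4:**
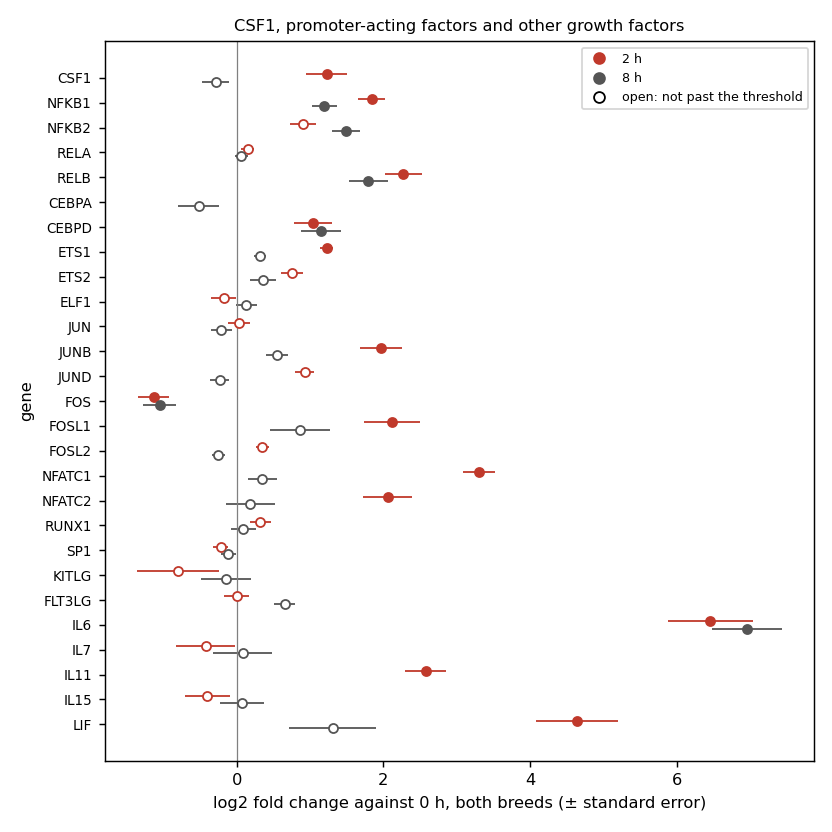
Log2 fold change against 0 h over both breeds, with its standard error, of CSF1, of the tested transcription factors known to act on the promoters of these genes and of the tested growth factors of blood cells, at 2 h (red) and 8 h (grey). Filled points passed the threshold. CSF1 stands at 1.23 at 2 h and -0.29 at 8 h, NFATC1 at 3.30 and 0.35, and IL6 at 6.46 and 6.96.

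Of 19 listed genes that carry the signal below the receptors, 12 were tested at 2 h and 12 at 8 h over both breeds. At either hour 0 passed the threshold, as did 2.82% of all rows at 2 h and 1.42% at 8 h. With 12 genes tested, that count cannot be told from those shares. In the edgeR likelihood ratio test 3 of the 12 had an unadjusted p under 0.05 at 2 h and 3 at 8 h, and 0 passed in the F test or in DESeq2. Within Holstein cells at 8 h, 14 were tested, 5 had an unadjusted p under 0.05 and 0 passed the threshold. CISH, a suppressor of cytokine signalling that is known to follow STAT5, rose in Holstein cells at 2 h by 1.72 ± 0.25 (FDR = 5.48e-10) and was higher there than in Angus cells by 1.58 ± 0.33 (FDR = 9.78e-05).

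Of 9 genes listed as cues that induce these factors or as receptors and adaptors for such cues, 5 were tested at 2 h over both breeds. These were receptors and adaptors (IL17RA, IL1R1, TLR4, LY96 and MYD88), and 0 passed the threshold (edgeR, 1 with an unadjusted p under 0.05, and 0 past it in the F test or in DESeq2). Of all rows tested there, 2.82% passed. The cytokines of the list, IL1A, IL1B and TNF, were removed by the filter in that comparison. The study itself reported IL1A and TNF as induced at 2 h over both breeds. IL1A, an IL-1 cytokine, averaged 0.262 ± 0.0673 CPM at 0 h and 2.92 ± 2.79 CPM at 2 h in Angus cells. In Holstein cells it averaged 0.337 ± 0.280 and 2.58 ± 1.65 CPM. Like TNF, IL1A was higher at 2 h in 8 of 8 animals over both breeds. At 8 h it could be tested in Holstein cells, where it rose by 2.76 ± 0.66 (FDR = 0.00111). TNF was tested in Holstein cells, where it rose at 2 h by 6.77 ± 0.73 (FDR = 1.45e-19), from 0.0304 ± 0.0252 to 3.14 ± 1.90 CPM. It was higher in Holstein than in Angus cells at 2 h by 2.79 ± 0.88 (FDR = 0.0205). TLR4, the LPS receptor, was higher in Holstein cells at 0 h (1.59 ± 0.50, FDR = 0.0209), 2 h (2.01 ± 0.41, FDR = 9.66e-05) and 8 h (1.33 ± 0.36, FDR = 0.00457). In the F test TLR4 did not pass at 0 h (FDR = 0.0776) nor TNF at 2 h (FDR = 0.0636), and without the differently counted libraries TLR4 was higher at 0 h by 0.91 (FDR = 0.567).

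The rows whose profile was most like each gene were found over the 24 libraries among 13596 rows with a symbol, by the correlation of log2(CPM + 0.1). For CSF1 they were CYTH1, a regulator of ARF proteins (Pearson r = 0.889), TSC22D1 (0.885), the small GTPase RRAD (0.854), the growth factor HBEGF (0.851) and C15H11orf96 (0.848). For CSF2 they were CYTH1 (0.918), TNF (0.915), the nuclear inhibitor NFKBID (0.906), RRAD (0.901) and the histone demethylase KDM6B (0.898). For CSF3 they were NOS2 (0.822), ACSL4 (0.819), AGFG1 (0.800), LRCH1 (0.792) and LOC785403 (0.785). CYTH1 and RRAD stood among the 5 rows most like both CSF1 and CSF2. The points share animals, libraries and hours, so the coefficients describe these 24 libraries.

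**Figure D5:**
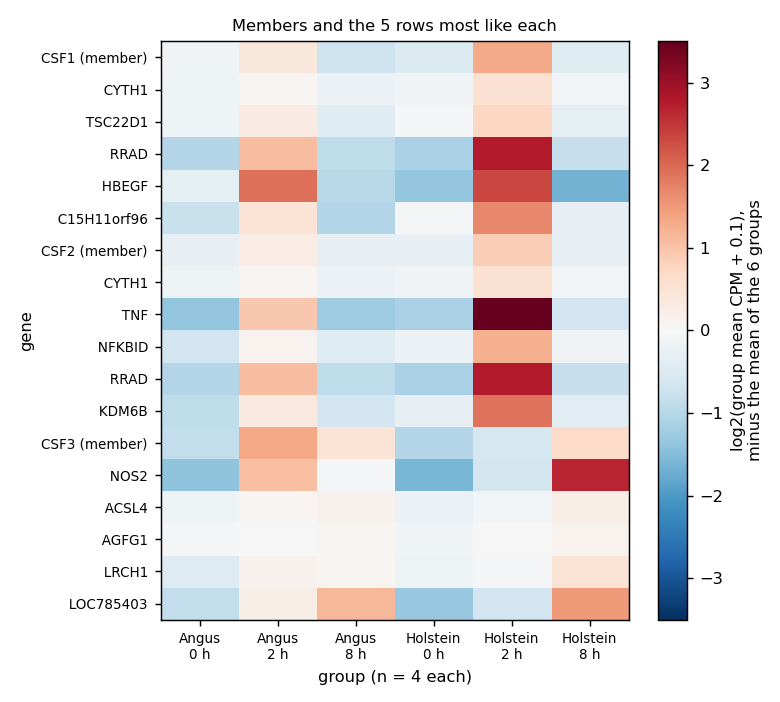
Group means, as log2(CPM + 0.1) minus the mean over the 6 groups, for CSF1, CSF2, CSF3 and the 5 rows most like each. The rows of CSF1 and CSF2 are highest at 2 h in Holstein cells, where TNF averaged 3.14 CPM, and NOS2, the row most like CSF3, is highest at 8 h in Holstein cells at 1.79 CPM.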

How the data were processed

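Polyadenylated RNA of 24 samples was sequenced, and each sample was grouped by the breed, hour and animal number in its label. Per the file headers and the study's methods, the authors aligned filtered reads to UMD v3.1 with NextGENe 2.3.4 and deposited raw read counts per row, with a coverage signal per row that was deposited beside them and used only to check the counting. Summed counts were 1.5 to 1.71 times the matched reads, so a read could be counted on more than one row, and 12.3% to 20.5% of counts lay on rows without a gene symbol.

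For each comparison only the samples concerned were fitted, with edgeR 4.0.16 in R 4.3.3. By the study's stated methods, rows needed at least 1 CPM in 50% of samples, with a likelihood ratio test and Benjamini-Hochberg FDR over all rows. The study reported IL1A and TNF as induced at 2 h over both breeds, but this filter removed them, so the filters differed in effect. TMM scaling, the edgeR default, was added here. CPM values in the text are counts scaled by TMM over the 24 libraries. Exact permutation tests used log2(CPM + 0.1) per animal in Python 3.11.15 with scipy 1.17.1, and 42 were computed for the 3 genes, with p-values not adjusted over them. Counting intervals are exact 95% limits for counts summed over animals. They take each count as an independent read and leave out the spread between animals, so they are too narrow for a breed. The animal numbers pair the hours, because they name the same animal. Libraries of 1 animal deviated together from their group means (r from 0.421 to 0.733 over 24 pairs). The fit was tested on simulated counts, where 93% of rows changed 2.5-fold were recovered for 2 h against 0 h. For Holstein against Angus at 2 h the share was 91%. The simulation drew libraries as independent, without the likeness of libraries of 1 animal. It held only rows past the filter, so it does not cover CSF2 or CSF3. The genes, gene lists and tests were chosen with earlier results of these data known. Genes named beyond CSF1, CSF2 and CSF3 came from those lists or were the 5 rows most like each, except the neighbours on the chromosome, and NOS2, TNF and KRT14 in the comparison of single libraries, which were chosen after their values were seen. DESeq2 1.42.0, the F test, other scalings and filters, the animal as a block and each animal left out were tried as alternatives. The p-values set differences against the spread between these cultures only. Fits between hours without the animal as a block treated the libraries of 1 animal as independent. Protein was not measured.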

Additional observations from a re-analysis of the deposited data

Results flagged for a closer look

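In the Angus group at 2 h the CSF3 level of animal 3, 1.808 CPM, stood apart from the other 3 samples by more than Dixon's 95% limit for 4 values. The change of CSF3 from 0 h to 2 h in the same animal, 3.849 on the log2(CPM + 0.1) scale, stood apart from those of the other Angus animals in the same way. 26 such checks were made on the 3 genes, of which chance flags about 1 in 20. Both values come from the same library, whose COL1A1 counting differed from most, and CSF3 had 79.7 covered bases per count there against 97.1 in the same animal at 8 h.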

How the results depend on the processing

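The CSF1 rise at 2 h over both breeds, its fall from 2 h to 8 h over both breeds, and both Holstein changes passed the threshold under every alternative fitted (25, 25, 19 and 17 settings), with log2 fold changes from 1.03 to 1.37, -1.59 to -1.37, 1.63 to 2.08 and -1.91 to -1.62. Of 299 alternative fits for CSF1 over the 14 comparisons, 283 kept direction and side of the threshold. The Angus fall from 2 h to 8 h no longer reached 2-fold in 5 of 20 settings, so that 0 members passed: -0.92 without scaling beyond the total count, -0.93 without the libraries of the other COL1A1 counting (-0.93 also with no filter) and -0.81 without Angus animal 3 (-0.81 also with no filter). Leaving out 1 animal gave -1.28 to -0.81 and 0 to 1 members. The Angus change at 8 h, -0.61, counted as 1 member past the threshold on FDR alone. The breed difference at 2 h became 1.12 without the libraries of the other COL1A1 counting (1.10 with no filter, and 1.10 with no filter and without Angus animal 3), which made 1 member, and leaving out 1 animal gave 0.67 to 1.14 and 0 to 1 members. Fitting the animal as a replicate block raised the interaction at 2 h past the threshold (1.22, and 1.20 with no filter, 1 member), the F test with the block did not, and the block changed no other CSF1 call. Without the filter, the block gave CSF3 in Angus cells at 8 h an FDR of 0.00824 against 0.212, CSF3 from 2 h to 8 h over both breeds an FDR of 0.0287 against 0.971, and CSF3 at 2 h over both breeds an FDR of 0.0719 against 0.0104. At 8 h the near-zero Holstein change of CSF1 became negative without 1 animal (-0.059 to 0.23 in the fits and -0.13 to 0.25 in the exact tests) and was -0.12 without the animals of the other COL1A1 counting.

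CSF3 values at 2 h reversed with Angus animal 3. On the log2(CPM + 0.1) scale the Angus change from 0 h was -0.022 without it (-0.022 to 1.34 leaving out each animal in turn) and -0.17 without the animals of the other counting. The Angus change from 2 h to 8 h became 0.44 in both cases (-0.45 to 0.44 in turn) and 0.084 without scaling. The breed difference at 2 h became 0.31 in both cases (-1.05 to 0.31 in turn), and the interaction 0.43 and 0.51 (-0.94 to 0.43 in turn). In the edgeR fits without the filter, CSF3 over both breeds changed from 2 h to 8 h by -0.16 (FDR = 0.971). This change was 2.74 (FDR = 0.00110) without the libraries of the other counting and 2.34 (FDR = 0.00501) without Angus animal 3. Without those libraries the Angus change at 2 h went from 4.27 (FDR = 0.0959) to -0.77 (FDR = 0.720). The Angus change from 2 h to 8 h went from -1.12 to 3.52 (FDR = 0.116), and the 2 h interaction from -2.30 to 3.33 (FDR = 0.662). Of 327 alternative exact tests 303 kept direction and side of 0.05. By Spearman's rho, 2, 0 and 1 of the 5 rows most like CSF1, CSF2 and CSF3 stayed among the 5. Of 74 calls of other listed genes refitted without the differently counted libraries, 67 kept direction and threshold, as did 85 of 89 in the F test and 73 of 73 with the block. Depth limits CSF2 and CSF3, whose levels in most libraries rest on few counts.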
